A study of Drosophila melanogaster with 84 samples.

Results

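The 7 genes described here, *CG10513*, *CG10514*, *CG10550*, *CG10553*, *CG10559*, *CG10560* and *CG10562*, belong to the ecdysteroid kinase-like (EcKL) family of *Drosophila melanogaster* and lie in a single genomic cluster. They were chosen as relatives and neighbours of *CG10560*, a gene taken as cycling at both 18°C and 25°C, out of 17869 FlyBase genes in the expression table. The neighbourhood was selected on the measured rhythm of *CG10560* in wild-type flies on the 15% diet at these temperatures, so that rhythm is described below without a test. Of the 7 genes, 6 passed the filter on low values (a median above 5 TPM, the share of all transcripts on a fixed scale and per length, at 18°C or 25°C on the 15% diet), which kept 7157 genes in all. *CG10559* did not pass.

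EcKL proteins are predicted small-molecule kinases. The family is named after an enzyme of the silkworm *Bombyx mori* that phosphorylates ecdysteroids, the steroid hormones of insects, into a storage form, and members of the *Drosophila* family have also been linked to detoxification. Ecdysone acts through a nuclear receptor, the heterodimer of EcR and Usp, and is inactivated by enzymes such as Cyp18a1. The fat body, the insect tissue with functions of liver and adipose tissue, responds to ecdysone. No single role is given here for any of the 7 genes, which carry only CG numbers.

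The abdominal fat bodies came from young mated females kept in 12 h light and 12 h dark and dissected on day 5, with tissue of 10 flies per library and 84 libraries in all. By the study's methods, all flies were raised at 25°C, and the 18°C group was moved as adults, 5 days before sampling. Wild-type flies (*w*1118) were fed either a control food with 15% of sucrose plus yeast (15% SY), at 18°C (24 libraries) or at 25°C (24 libraries), or a restricted food with 5% (5% SY) at 25°C (24 libraries). They were sampled at 12 time points from ZT2 to ZT24 with replicates 1 and 2 at each. The clock mutant *Clk-Jrk* was a stock backcrossed 7 times to *w*1118, kept on 15% SY at 25°C and sampled at 6 time points from ZT2 to ZT22 (12 libraries). *Clk-Jrk* is a dominant allele of *Clk*, the gene of a transcription factor that drives *per* and *tim*. All comparisons below share the wild-type libraries at 25°C on 15% SY as the control. Nothing in the labels says that the replicates are separate cohorts, so *p*-values measure the spread between these libraries. Flies of the light phase and dark phase can have come from different incubators, because a pair of incubators with opposite light schedules was used.

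The mutant label was checked on *tim* and *per*. *tim* ranged from 1.57 to 5.70 TPM in the *Clk-Jrk* libraries and from 9.70 to 126 TPM in the wild type at 25°C on 15% SY. *per* had medians of 1.96 and 3.51 TPM in these groups, with overlapping ranges, and *Clk* itself had medians of 3.92 and 4.50 TPM. Of the 8 fat body markers, *apolpp* and the yolk protein genes were abundant in all groups, and the summed level of the 8 lay between 11856 and 172301 TPM per library. Most of this sum came from *Yp1*, *Yp2* and *Yp3*, with medians of 31932, 27549 and 24247 TPM at 25°C on 15% SY. *Fbp1* reached at most 0.43 TPM in any library, and *Lsp2* had medians of 3.3 TPM on 5% SY and 627 TPM in *Clk-Jrk*. The protocol removed intestine, ovaries and Malpighian tubules before the fat tissue was collected. The median of the fat body sum at 18°C was 18471 TPM in replicate 1 and 89551 TPM in replicate 2. Markers of the removed tissues were present, at a summed 13.0 to 244 TPM for the 6 Malpighian tubule markers, 0.62 to 8191 TPM for the 6 midgut markers and 1.81 to 3188 TPM for the 6 ovary and germline markers. In bulk tissue, fewer cells of a type and less RNA per cell cannot be told apart.

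The 7 genes span 46.968 kb on chromosome 3R of the BDGP6 assembly, from 25275790 to 25322757, and all are on the minus strand. *CG10513* (FBgn0039311, 25275790 to 25277212) and *CG10514* (FBgn0039312, 25278427 to 25279846) form a pair at one end, 1214 bases apart, with 2 exons each. *CG10550* (FBgn0039321, 25306407 to 25308391) lies alone among other family members. *CG10559* (FBgn0039323, 25314494 to 25316116), *CG10553* (FBgn0039324, 25316461 to 25318111), *CG10560* (FBgn0039325, 25318550 to 25320101) and *CG10562* (FBgn0039326, 25321053 to 25322757) form a run at the other end, with 4 exons each. In that run, *CG10560* is 438 bases from *CG10553* and 951 bases from *CG10562*. No annotated exon of another gene overlaps those of the 7 genes. A window with 10 kb on either side holds 32 annotated genes, of which 26 are on the EcKL list and 6 are not. Whether reads were shared between similar copies could not be checked without the sequences.

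On the per-length scale of TPM, *CG10560* was one of the more abundant genes of the cluster. At 18°C its level ran from 6.22 to 222 TPM with a median of 34.6 TPM. At 25°C on 15% SY it ran from 11.9 to 137 TPM, with a median of 46.6 TPM. The ranges overlap, and in both groups the highest library was of replicate 1, at ZT20 and ZT6. On 5% SY it ran from 6.72 to 192 TPM (median 52.8 TPM). In *Clk-Jrk* it ran from 15.3 to 76.9 TPM (median 47.9 TPM). Ordered by median, the groups were 5% SY, *Clk-Jrk*, 25°C and 18°C, and the range of each group overlapped that of its neighbours.

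*CG10513* and *CG10514*, the pair at the other end of the cluster, had higher medians than *CG10560* at 18°C. In the other wild-type groups *CG10514* was above *CG10560* and *CG10513* below it by median. *CG10513* ran from 4.93 to 286 TPM at 18°C (median 67.1 TPM), from 15.4 to 102 TPM at 25°C (median 41.2 TPM) and from 0.33 to 190 TPM on 5% SY (median 42.0 TPM). *CG10514* ran from 6.83 to 265 TPM at 18°C (median 53.1 TPM), from 19.1 to 179 TPM at 25°C (median 88.1 TPM) and up to 243 TPM on 5% SY (median 84.8 TPM), where 1 library is listed at 0. Both genes therefore spanned more than an order of magnitude within a single group at 18°C and on 5% SY. That library listed at 0 for *CG10514* was ZT22 of replicate 2, which also held the lowest value of *CG10513*.

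*CG10553*, next to *CG10560*, had medians of 20.5 TPM at 18°C (3.38 to 141 TPM), 22.4 TPM at 25°C (6.48 to 50.7 TPM) and 35.1 TPM on 5% SY (1.61 to 95.9 TPM). *CG10562* was lower and steadier, with medians of 6.99, 7.54 and 10.4 TPM in these groups and 10.1 TPM in *Clk-Jrk*. *CG10559* reached at most 2.30 TPM in any library. Of the genes on either side of it, *CG10553* was expressed, and *CG31087* had group medians of at most 0.305 TPM. *CG10550* stayed between 23.6 and 66.8 TPM in all 84 libraries, with medians of 33.8, 32.3 and 34.9 TPM in the wild-type groups.

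The genes thus fell into a variable and a steady set. The standard deviation of log2(TPM + 1) between replicates of a time point at 18°C was 1.37 for *CG10513*, 1.33 for *CG10514*, 0.93 for *CG10553* and 0.86 for *CG10560*, against a median of 0.33 over all 7157 genes. Across the 4 groups these genes stood between the 77.5 and the 99.1 percentile of that spread. *CG10562* came next, between the 64.3 and the 75.0 percentile. At 25°C on 15% SY its standard deviation of 0.455 was close to the 0.485 of *CG10553*. *CG10550* stood between the 11.5 and the 61.4 percentile. The plot of the libraries by time of day shows the same contrast.

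**Figure D1:**
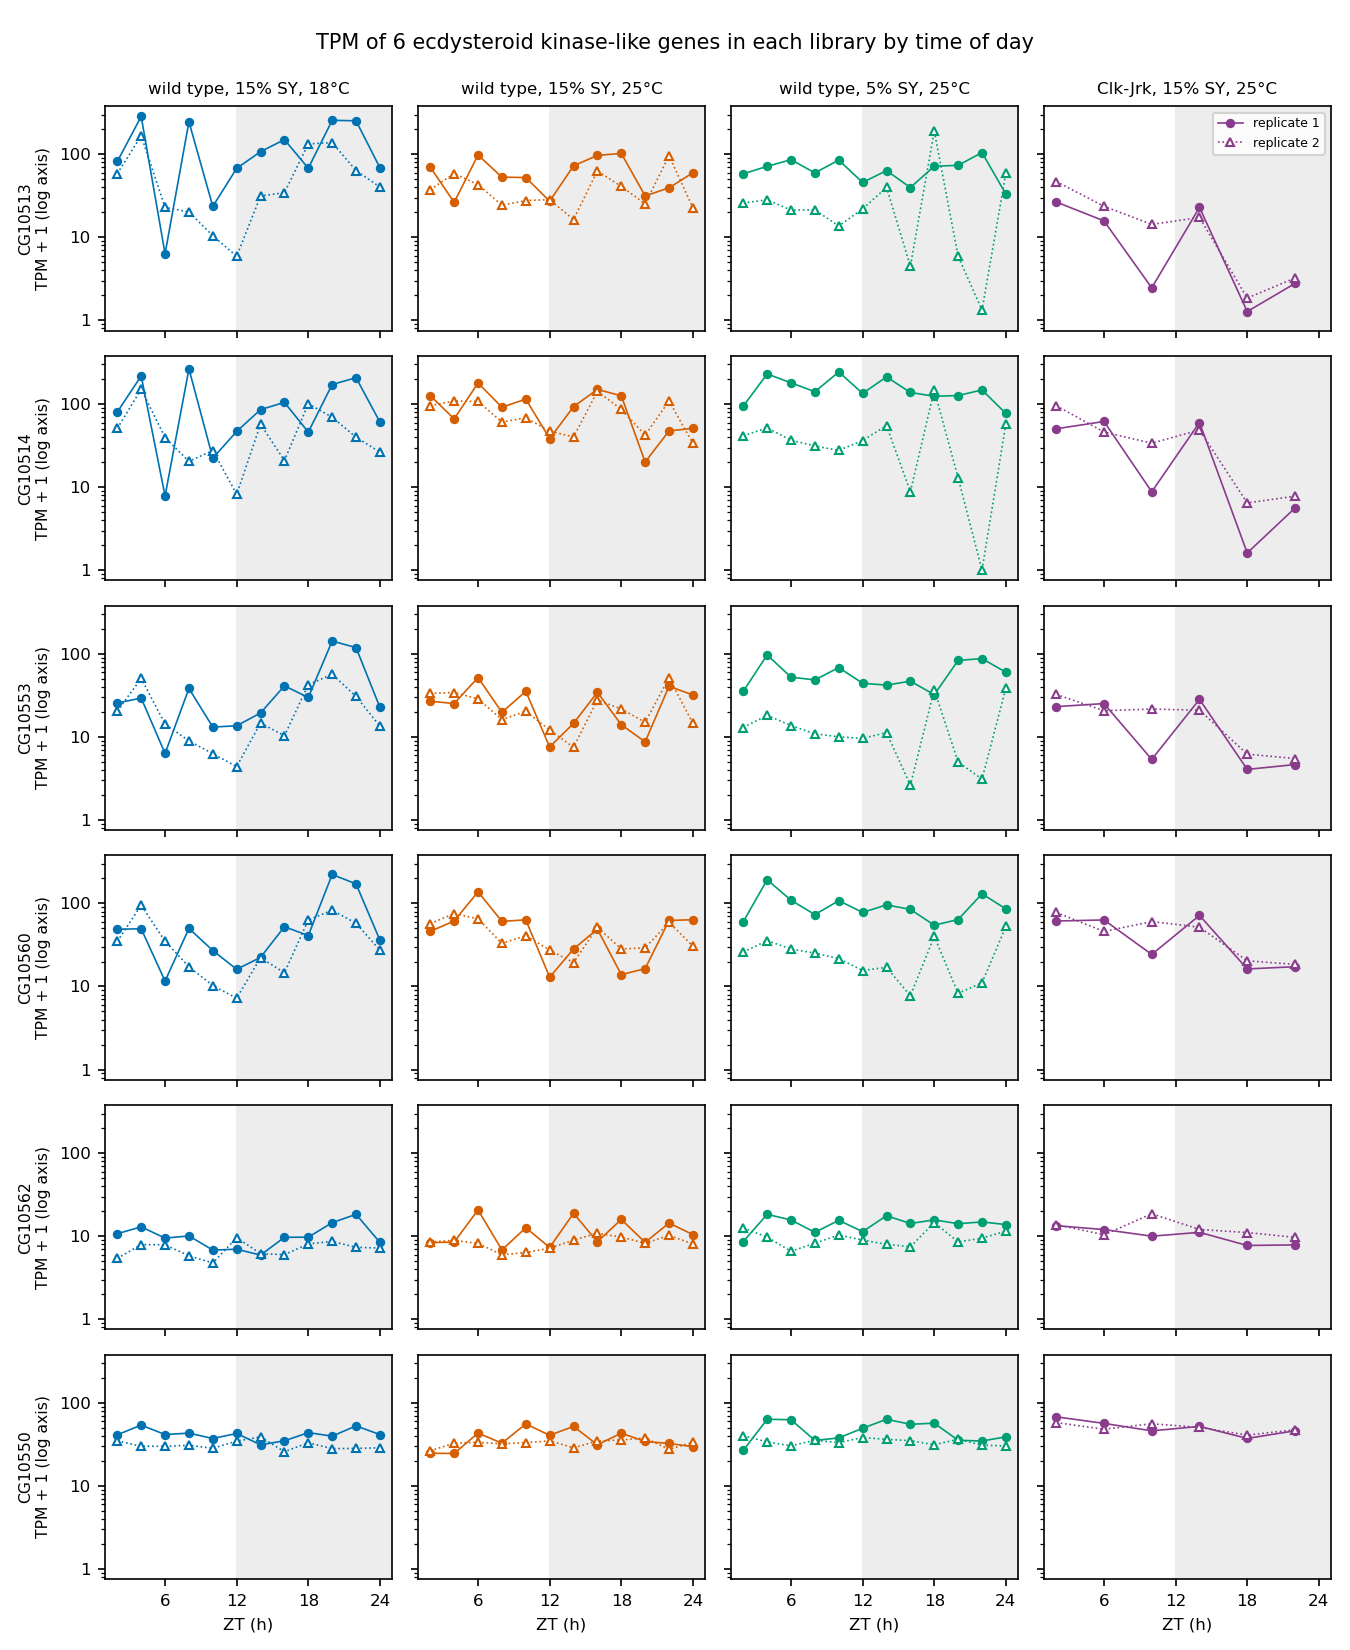
TPM + 1 on a log axis against ZT in hours for 6 EcKL genes (rows) in the 4 groups (columns). Each point is 1 library, filled circles and solid lines are replicate 1, open triangles and dotted lines are replicate 2, and the dark phase is shaded; *CG10550* stays between 23.6 and 66.8 TPM throughout, whereas *CG10513* runs from 0.28 to 286 TPM.

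On 5% SY the variable genes were mostly higher in replicate 1, and among them the replicates were fully separate only for *CG10560*. The 12 libraries of replicate 1 held *CG10560* at 53.7 to 192 TPM and the 12 of replicate 2 at 6.72 to 51.9 TPM, so the replicates did not overlap. The medians were 84.5 and 22.5 TPM. For *CG10514* they were 139 and 35.6 TPM, and for *CG10553* 49.4 and 10.0 TPM, with replicate 1 higher at 11 of 12 time points in both. Their ranges overlapped, with replicate 2 up to 147 and 37.6 TPM and replicate 1 down to 76.1 and 31.2 TPM. For *CG10513* the medians were 66.85 and 20.75 TPM, with replicate 1 higher at 10 of 12 time points. Replicate 2 of *CG10513* ran from 0.33 to 190 TPM, across the whole range of replicate 1 (32.3 to 104 TPM). *CG10550* differed less, with medians of 43.2 and 33.4 TPM. The summed Malpighian tubule markers had medians of 118 TPM in replicate 1 and 31.3 TPM in replicate 2 of this group.

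The variable genes moved together across libraries. After the mean of each group was subtracted from log2(TPM + 1), *CG10553* had the highest correlation with *CG10560* of all 7157 genes over the 84 libraries (*r* = 0.96). It was followed by *Smvt* (*r* = 0.91), a sodium-dependent multivitamin transporter, and *Oatp58Dc* (*r* = 0.88), an organic anion transporter. Within groups, the correlation of *CG10553* with *CG10560* was 0.98 at 18°C, 0.90 at 25°C and 0.99 in *Clk-Jrk*, with Spearman's rho of 0.97, 0.86 and 0.98 (each permutation *p* = 1e-05, the smallest that 100000 permutations can give, adjusted *p* = 1.15e-04 for *r* over the 252 relations computed). It was 0.96, 0.87 and 0.98 without the 2 libraries farthest from the median of *CG10553*. Within replicate 1 and replicate 2 it was 0.98 and 0.98 at 18°C, 0.92 and 0.90 at 25°C, and 0.70 and 0.95 on 5% SY. No pooled value is given on 5% SY, because the replicates of *CG10560* stood apart there. The values over the 84 libraries do include that gap, since only the mean of each group was subtracted.

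The ratio of *CG10560* to *CG10553* varied less than either gene. Its median was 1.67 at 18°C (1.17 to 2.58), 2.02 at 25°C (0.99 to 3.20), 1.81 on 5% SY (0.77 to 4.81) and 2.82 in *Clk-Jrk* (2.29 to 5.37).

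Shared variation did not follow position alone. Of the 26 EcKL genes in the window, 22 had a median above 1 TPM in at least 1 group, and 8 of the other 21 had a correlation above 0.7 with *CG10560*. These were *CG10513* (0.77), *CG10514* (0.79) and *CG10553* (0.96), and *CG11889* (0.80), *CG11891* (0.71), *CG11892* (0.77), *CG31097* (0.85) and *CG31288* (0.79), from both strands. The share of all 7157 genes above 0.7 was not computed. The count of 8 therefore does not show whether the cluster differs from other genes. *Smvt* (0.91) and *Oatp58Dc* (0.88), which are not on the EcKL list, had higher values than all of the 8 except *CG10553*. *CG11889* and *CG11891* are annotated on the same strand at the same position (25270209 to 25273267) with overlapping exons. Their values are therefore not separate observations. *CR13656*, a pseudogene at the edge of the window that is not on the EcKL list, had a correlation of 0.84. Its group medians were at most 4.865 TPM. Its exons overlap those of *asRNA:CR45214* on the other strand, and reads were quantified without regard to strand. *CG10562*, the other neighbour of *CG10560*, had a correlation of 0.58, *CG10559* of 0.37 and *CG10550* of 0.31. *CG31102*, between these genes and the *CG10513* pair, had a correlation of 0.07. These correlations are over the same 84 libraries, and the genes share whatever varies between libraries.

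**Figure D2:**
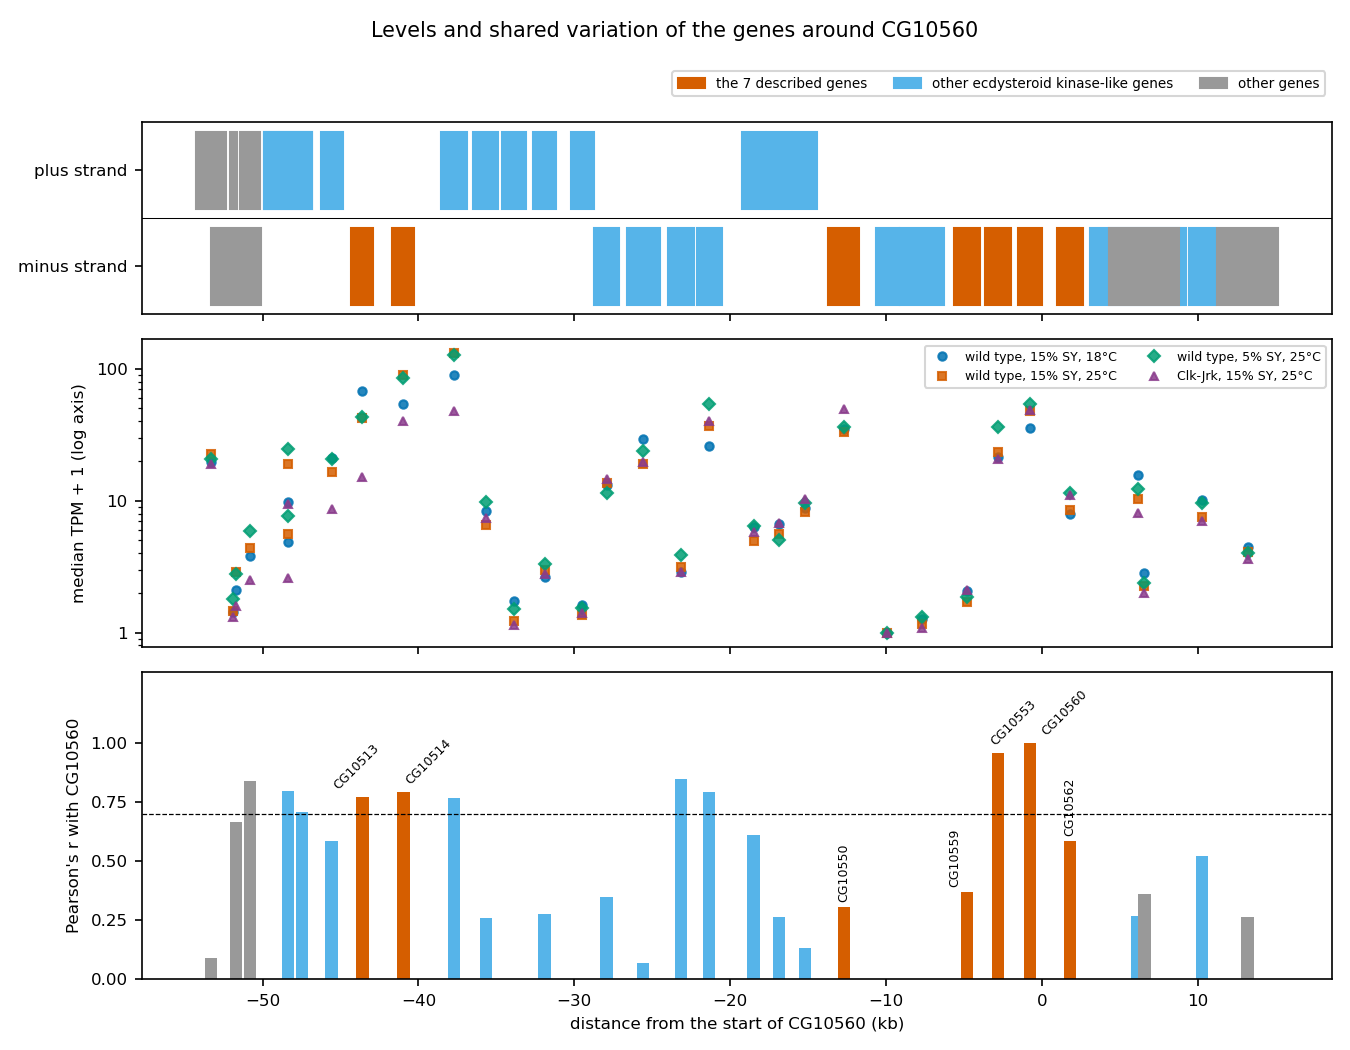
Genes of the window by distance in kb from the start of *CG10560*, with the 7 described genes in orange, other EcKL genes in blue and other genes in grey. The top row gives the strand, the middle row the median TPM + 1 of each group on a log axis, and the bottom row Pearson's *r* with *CG10560* over 84 libraries for genes with a median above 1 TPM in a group, with a dashed line at 0.7; *CG10553* reaches 0.96 and *CG10550* 0.31 (the bar of *CG11891* is shifted to the right of that of *CG11889*).

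Markers of the Malpighian tubule, the fly's excretory organ, moved with the variable genes. The 6 markers were *Uro* (urate oxidase), *Irk1* (a potassium channel), *NaCP60E* (a sodium channel), *ZnT35C* (a zinc transporter), *Best2* (a bestrophin) and *List* (a neurotransmitter-type transporter). Their sum had medians of 62.4 TPM at 18°C (17.5 to 136 TPM), 86.2 TPM at 25°C (27.8 to 140 TPM), 76.6 TPM on 5% SY and 50.2 TPM in *Clk-Jrk*. *Uro*, the defining marker, was listed at 0 in at least 1 library on 5% SY. *CG10560* correlated with the log2 of this sum at 18°C (*r* = 0.71, adjusted permutation *p* = 8.13e-04, rho = 0.60, adjusted *p* = 0.0116) and at 25°C (*r* = 0.53, adjusted *p* = 0.0315, rho = 0.55, adjusted *p* = 0.0244). Without the 2 libraries farthest from the median sum, *r* was 0.59 and 0.48. Within replicate 1 and replicate 2, *r* was 0.74 and 0.65 at 18°C, 0.74 and 0.37 at 25°C, and 0.81 and 0.90 on 5% SY. In *Clk-Jrk*, *r* was 0.58 over 12 libraries (adjusted permutation *p* = 0.09999).

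Over 6 genes and the 3 groups other than 5% SY, 7 of 18 relations with the tubule markers had an adjusted *p* below 0.05, and *r* was positive in each of the 7 and within both replicates. The share of all genes related to the marker sums was not computed. The counts of this paragraph therefore do not show whether the cluster differs from other genes. On 5% SY, within replicate 1 and replicate 2, *r* was 0.30 and 0.69 for *CG10513*, 0.69 and 0.57 for *CG10514*, and 0.43 and 0.86 for *CG10553*. *CG10550* was not among the 7, with *r* = 0.18 at 18°C, -0.22 at 25°C and 0.32 in *Clk-Jrk*. Of the other marker lists, that of oenocytes, the hydrocarbon-making cells attached to the same abdominal wall, had 9 of 18, all positive, with *r* = 0.91 (adjusted permutation *p* = 9.16e-04, rho = 0.87, adjusted *p* = 0.00393) for *CG10513* in *Clk-Jrk*, where it was 0.87 and 0.98 within the replicates, and 0.28 at 18°C. Some of the 9 were weaker within replicates, as for *CG10550* at 18°C (0.62 over all libraries, 0.11 and 0.65 within the replicates) and *CG10562* at 18°C (0.51, and 0.20 and 0.30). The lists of muscle, ovary and germline, fat body and midgut markers had 4, 2, 2 and 2 of 18. That of the fat body with *CG10550* at 18°C did not hold within the replicates (*r* = -0.60 over all libraries, 0.25 and 0.17 within them). Whether tubule tissue or oenocytes contributed to the levels of the EcKL genes was not tested.

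**Figure D3:**
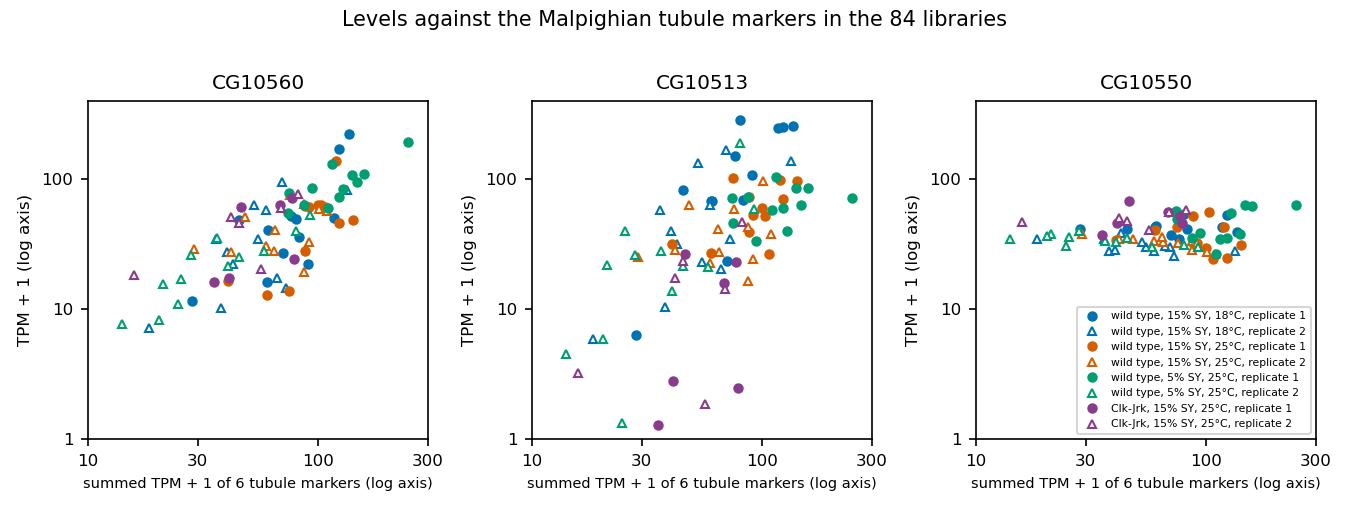
TPM + 1 of *CG10560*, *CG10513* and *CG10550* against the summed TPM + 1 of 6 Malpighian tubule markers, both on log axes, with 1 point per library, colours for the 4 groups and filled or open symbols for replicate 1 or 2. *CG10560* is highest where the sum is high, 4 of the 5 lowest *CG10513* values of *Clk-Jrk* lie at sums below the 63.0 to 122 TPM of the matched wild type, and *CG10550* shows little change along the axis.

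The rhythm of *CG10560*, which the choice of the genes used, is given as a description. In harmonic regression of TPM on a 24 h cosine and sine, its mean at 18°C was 49.8 TPM and its amplitude 40.4 ± 12.7 TPM (SE over 24 libraries), with the peak at ZT 21.7 ± 1.20 h. At 25°C on 15% SY the amplitude was 23.1 ± 6.42 TPM around 46.3 TPM, and the peak was at ZT 4.42 ± 1.06 h. The amplitude at 18°C was 58.4 TPM without replicate 2 and 24.8 TPM without replicate 1. The highest libraries at 18°C were ZT20 and ZT22 of replicate 1, with 222 and 171 TPM, and those of replicate 2 were ZT4 and ZT20, with 94.3 and 82.0 TPM. On 5% SY the amplitude was 15.5 ± 13.4 TPM with a peak at ZT 4.13, and the rhythm did not pass the threshold of *p* below 0.1 (*p* = 0.523 by the F-test over 24 libraries). The replicates stood apart there, and with the replicate number as a block the F-test *p* was 0.176. In *Clk-Jrk* the amplitude was 18.2 ± 8.65 TPM with a peak at ZT 7.03 (*p* = 0.166, 12 libraries).

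At 18°C, 1 of the 5 tested genes of the cluster had a *p*-value below 0.1, where 30.1% of all 7157 genes did. It was *CG10553*, whose amplitude was 26.5 ± 8.38 TPM around a mean of 31.2 TPM with a peak at ZT 21.1 (*p* = 0.0169, adjusted *p* = 0.137). Without replicate 1 its *p*-value was 0.113. *CG10553* followed *CG10560* across the libraries (*r* = 0.98 at 18°C and 0.90 at 25°C), and the choice of the genes used the rhythm of *CG10560* there. The rhythm tests of *CG10553* at these temperatures are therefore not independent of that choice. *CG10513* (peak ZT 22.6, amplitude 43.2 ± 24.8 TPM), *CG10514* (ZT 0.58, 24.7 ± 21.0 TPM) and *CG10562* (ZT 22.7, 1.85 ± 0.85 TPM) had *p*-values of 0.243, 0.511 and 0.117. *CG10550* had an amplitude of 2.10 ± 2.26 TPM (*p* = 0.654).

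At 25°C on 15% SY, 2 of the 5 tested genes had a *p*-value below 0.1, against 18.9% of all genes. *CG10553* peaked at ZT 2.17 with an amplitude of 8.29 ± 3.38 TPM (*p* = 0.0707, adjusted *p* = 0.483), and *CG10550* peaked at ZT 13.0 with an amplitude of 5.48 ± 1.98 TPM (*p* = 0.0381, adjusted *p* = 0.483). *CG10553* had *p*-values of 0.186 and 0.323 without replicate 1 and without replicate 2, and *CG10550* had 0.548 without replicate 1. On 5% SY, 0 of 6 genes passed, against 9.71% of all genes, and the smallest of their unadjusted *p*-values was 0.503, for *CG10550*. With the replicate number as a block the smallest was 0.176, for *CG10560*. In *Clk-Jrk*, 1 of 6 passed, against 17.0% of all genes. It was *CG10550*, with an amplitude of 7.33 ± 2.79 TPM and a peak at ZT 4.90 (*p* = 0.0773, adjusted *p* = 0.567), and its *p*-value was 0.464 and 0.293 without replicate 1 and without replicate 2. None of the tested genes had an adjusted *p*-value below 0.05 in any group on the TPM scale, where 4.46%, 0.475%, 0.377% and 0% of all genes did at 18°C, at 25°C, on 5% SY and in *Clk-Jrk*. On the scale of log2(TPM + 1), *CG10553* passed at 18°C (*p* = 0.00222 by the F-test over 24 libraries, adjusted *p* = 0.0446), with the limit given above for this gene.

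Differences in rhythm were tested with limma on log2(TPM + 1). Between 18°C and 25°C, 0 of the 5 tested genes passed at an adjusted *p* below 0.05, against 0.964% of all genes. Without adjustment, 1 had a *p*-value below 0.05, *CG10553* (limma *p* = 0.00748, adjusted *p* = 0.125), as did 24.0% of all genes. The limit on the rhythm tests of *CG10553* holds here too. The comparisons of diet and of genotype tested 6 genes, *CG10560* among them. The choice of the genes used the rhythm of *CG10560* in their shared wild-type control at 25°C. For *CG10560*, and for *CG10553* which followed it, these tests are therefore not independent of that choice, and no conclusion is drawn from them. Between the diets 0 of 6 passed, with 0 also unadjusted, and over all genes 0% passed, with 1.40% unadjusted. Between *Clk-Jrk* and wild type 0 of 6 passed, against 0.0279% of all genes, and 1 had an unadjusted *p*-value below 0.05, *CG10550* (limma *p* = 0.0336, adjusted *p* = 0.535), as did 8.76% of all genes.

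The mean levels over the day at 18°C and 25°C were compared next, on log2(TPM + 1), with 0 of 6 genes past the threshold of an adjusted *p* below 0.05 and 0 below 0.05 unadjusted. Of all genes, 53.7% passed, 23.1% as higher and 30.5% as lower at 18°C. The difference, 18°C minus 25°C, was -0.19 for *CG10560* (95% confidence interval -0.65 to 0.27, adjusted limma *p* = 0.495). It was 0.43 for *CG10513* (-0.23 to 1.10), -0.46 for *CG10514* (-1.09 to 0.17), 0.03 for *CG10553* (-0.46 to 0.52) and -0.21 for *CG10562* (-0.47 to 0.05). *CG10550* had the narrowest interval, -0.10 to 0.23 around 0.07. The intervals of the variable genes leave room for changes of up to about 1 on the log2 scale. With the tubule marker sum as a covariate, an alternative chosen after the data were seen, *CG10513* was higher at 18°C by 0.87 ± 0.25 (SE, adjusted limma *p* = 0.00378) and the other 5 did not pass.

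Between the diets, 0 of 6 genes passed, against 31.3% of all genes, with 6.15% higher and 25.2% lower on 5% SY. The count over all genes was 2242, and it was 3957 without replicate 1 and 2 without replicate 2. *CG10550* and *CG10562* had unadjusted *p*-values below 0.05, with differences, 5% minus 15% SY, of 0.20 ± 0.09 (higher in 19 of 24 pairs of libraries, adjusted limma *p* = 0.0882) and 0.27 ± 0.13 (17 of 24, adjusted *p* = 0.106). Here and below, a pair is 2 libraries with the same time point and replicate number, and the pair counts are only a description. The median difference of all genes was -0.11, and relative to it the 2 differences were 0.31 and 0.37. Only 19.6% of the calls over all genes were higher on 5% SY in TPM, but 44.5% when TPM was scaled by the median of ratios and 8.85% when the 20 most abundant features were left out. Under the median of ratios both genes passed (0.32, adjusted limma *p* = 0.00698, and 0.37, adjusted *p* = 0.0129). With the tubule marker sum as a covariate, *CG10550* (0.24), *CG10562* (0.36) and *CG10553* (0.49) passed, with adjusted limma *p*-values of 0.0437, 0.0165 and 0.0451.

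For the variable genes the difference between the diets turned with the replicate used. *CG10560* differed by 0.08 ± 0.29 over both replicates, by -0.95 without replicate 1 (adjusted limma *p* = 0.00559) and by 1.11 without replicate 2 (adjusted *p* = 0.0930). *CG10553* differed by 0.17 ± 0.34, and by -0.96 (adjusted *p* = 0.0421) and 1.3 (adjusted *p* = 0.0858). *CG10514* differed by -0.25 ± 0.40, and by -1.41 (adjusted *p* = 0.0367) and 0.90 (adjusted *p* = 0.189).

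In *Clk-Jrk*, *CG10513*, *CG10514* and *CG10553* were lower and *CG10550* was higher than in the wild type, whereas *CG10560* and *CG10562* did not pass the test. The 12 mutant libraries were set against the 12 wild-type libraries of the same 6 time points on 15% SY at 25°C. Of the 6 genes, 4 passed, against 46.5% of all genes (3 lower, against 36.7%, and 1 higher, against 9.74%).

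*CG10513* ran from 0.28 to 46.1 TPM in *Clk-Jrk* with a median of 14.1 TPM, and from 15.4 to 102 TPM in the wild type with a median of 47.0 TPM. In 7 of the 12 mutant libraries it was below the lowest wild-type value. Its difference was -2.59 ± 0.48 on the log2 scale, which is 0.166 of the wild-type level (adjusted limma *p* = 2.97e-04, lower in 10 of 12 pairs). *CG10514* ran from 0.61 to 94.6 TPM (median 38.9 TPM), against 39.2 to 179 TPM (median 101 TPM) in the wild type, and 6 of its 12 mutant values were below the wild-type range. Its difference was -2.18 ± 0.45, or 0.221 of the wild-type level (adjusted limma *p* = 7.50e-04, lower in 11 of 12 pairs). Both calls held without replicate 1 (-1.80 and -1.59, adjusted *p* = 0.0393 and 0.0439) and without replicate 2 (-3.38 and -2.76, adjusted *p* = 0.0151 and 0.0333).

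*CG10553* ran from 3.05 to 31.4 TPM (median 19.8 TPM), against 6.48 to 50.7 TPM (median 26.7 TPM), with 5 mutant values below the wild-type range. It differed by -0.99 ± 0.33 (adjusted limma *p* = 0.0187, lower in 9 of 12 pairs). This call was lost without replicate 1 (-0.66, adjusted *p* = 0.178), without replicate 2 (-1.32, adjusted *p* = 0.121) and after median-of-ratios scaling (-0.80, adjusted *p* = 0.0700). *CG10560*, its neighbour, differed by -0.22 ± 0.26 (-0.75 to 0.32, adjusted *p* = 0.491), and none of its mutant values left the wild-type range of 12.9 to 137 TPM.

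*CG10550* moved the other way. It ran from 36.3 to 66.8 TPM in *Clk-Jrk* (median 48.4 TPM) and from 23.7 to 54.7 TPM in the matched wild type (median 32.3 TPM), and 4 mutant values were above the wild-type range. The difference was 0.50 ± 0.11, or 1.42 times the wild-type level (adjusted limma *p* = 0.00116, higher in 10 of 12 pairs). It did not pass without replicate 2 (0.31, adjusted *p* = 0.135). *CG10562* differed by less than 0.01 over both replicates (95% confidence interval -0.38 to 0.38), by 0.52 without replicate 1 (adjusted *p* = 0.0384) and by -0.52 without replicate 2 (adjusted *p* = 0.119).

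The median difference of all genes between *Clk-Jrk* and wild type was -0.23, and relative to it the differences were -2.36 for *CG10513*, -1.95 for *CG10514*, -0.77 for *CG10553*, 0.01 for *CG10560*, 0.23 for *CG10562* and 0.73 for *CG10550*. Of the calls over all genes, 21.0% were higher in the mutant in TPM, 49.6% with the median of ratios and 29.0% without the 20 most abundant features. *CG10513*, *CG10514* and *CG10550* passed under both of these scalings.

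The low values of the mutant were grouped in time. *CG10513* was at 0.28, 0.86, 1.79 and 2.24 TPM in the 4 libraries of ZT18 and ZT22, at 1.47 TPM in replicate 1 of ZT10, and between 13.3 and 46.1 TPM in the other 7. The same 5 libraries held the 5 lowest values of *CG10514* (0.61 to 7.79 TPM), *CG10553* (3.05 to 5.18 TPM) and *CG10560* (15.3 to 23.3 TPM). In the dark phase alone the differences of *CG10513* and *CG10514* from the wild type were -3.52 and -2.88 (adjusted limma *p* = 0.00896 and 0.0267). In the light phase alone they were -1.66 and -1.47 (adjusted *p* = 0.0561 and 0.0396), so *CG10513* did not pass there. *CG10550* passed in the light phase (0.66, adjusted *p* = 0.0283) and not in the dark phase (0.35, adjusted *p* = 0.138).

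The tubule markers also differed between *Clk-Jrk* and wild type. Their sum ran from 14.9 to 80.6 TPM in the mutant (median 50.2 TPM) and from 63.0 to 122 TPM in the matched wild type (median 86.6 TPM). The sum was below the matched wild-type range in 4 of the 5 mutant libraries lowest in *CG10513* and in 3 of the other 7. That range rests on the shared time points. Over all 24 libraries of the same wild-type group the sum ran from 27.8 to 140 TPM. Of the 6 markers, 4 were tested and 2 passed as lower, *Uro* by -1.83 ± 0.31 and *Irk1* by -0.85 ± 0.13 (adjusted limma *p* = 1.45e-04 and 6.30e-05). With the log2 of this sum as a covariate, chosen after the data were seen, *CG10513* differed by -2.03 ± 0.70 (adjusted *p* = 0.0928), *CG10514* by -1.61 ± 0.66 (adjusted *p* = 0.166), *CG10553* by -0.62 ± 0.48 (adjusted *p* = 0.569) and *CG10550* by 0.59 ± 0.16 (adjusted *p* = 0.0322), so that of the 4 calls only that of *CG10550* remained. The oenocyte marker sum ran from 29446 to 48348 TPM in the mutant and from 23162 to 56649 TPM in the matched wild type. Most of it was *Cyp4g1* (mutant medians of 30148 TPM for *Cyp4g1* and 35406 TPM for the sum). Of the oenocyte markers, 4 were tested, with 1 higher and 1 lower in the mutant. Of the fat body markers, 4 of the 7 tested were higher and 0 lower in the mutant, and of the muscle markers 4 of 4 were lower. Under the tubule covariate 462 of 7157 genes passed, against 3325 without it.

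**Figure D4:**
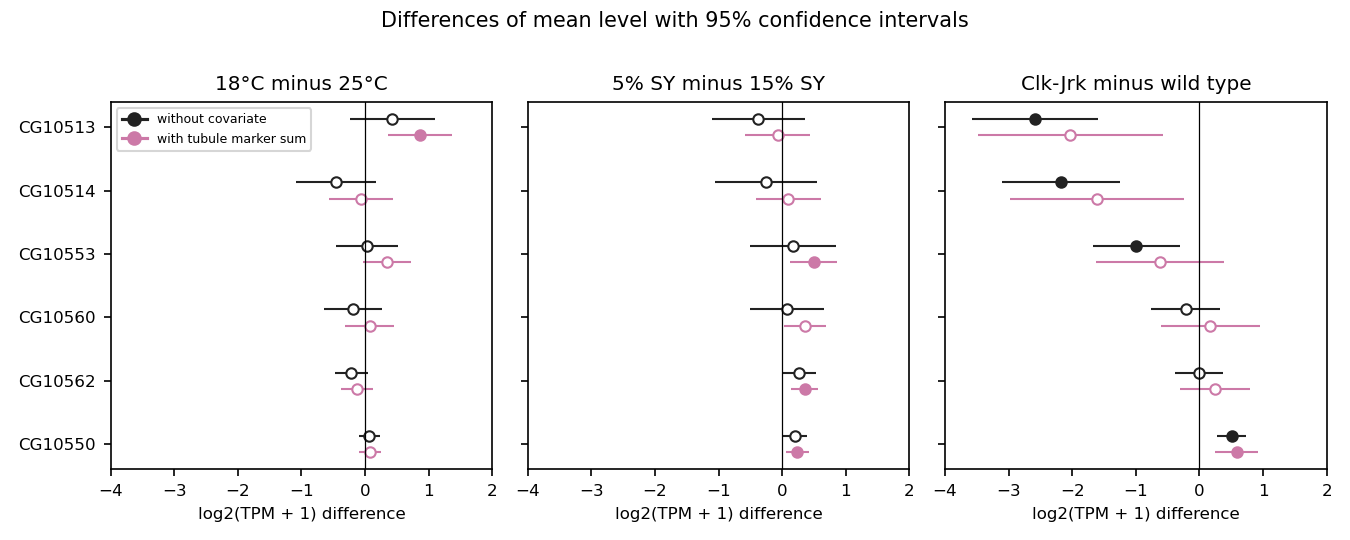
Differences of mean log2(TPM + 1) with 95% confidence intervals for 6 EcKL genes in the 3 comparisons, in black without a covariate and in pink with the tubule marker sum as a covariate. Filled points have an adjusted limma *p* below 0.05; without the covariate these are *CG10513*, *CG10514*, *CG10553* and *CG10550* in *Clk-Jrk*.

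Of the 44 other EcKL genes on the list, 26 passed the filter. Relative to 25°C, 10 of these were higher and 4 lower at 18°C, against 23.1% and 30.5% of all genes, with a median difference of 0.23 against -0.06 over all genes. *CG31102* (0.73 ± 0.09), *CHKov1* (0.61 ± 0.09), a gene with natural variants linked to resistance to sigma virus, and *CG13659* (0.56 ± 0.16) rose most, and *CG11889* (-0.86 ± 0.26), *CG33301* (-0.81 ± 0.23) and *CG6908* (-0.81 ± 0.21) fell most (adjusted limma *p* = 5.39e-09, 3.16e-07, 0.00434, 0.00491, 0.00320 and 0.00165). On 5% SY, 4 were higher and 0 lower, against 6.15% and 25.2% of all genes, led by *CG31102* (0.34 ± 0.08, adjusted *p* = 0.00459), *CHKov2* (0.30 ± 0.10, adjusted *p* = 0.0266) and *JhI-26*, a gene inducible by juvenile hormone (0.26 ± 0.10, adjusted *p* = 0.0350). With replicate 1 left out 5 were higher and 7 lower, and with replicate 2 left out 0 passed in either direction. The count of higher genes on 5% SY was 8 with the median of ratios and 1 without the 20 most abundant features. At 18°C, 0 were lower without replicate 2. *CG11889*, which fell most at 18°C, overlaps *CG11891* in its exons, as given above.

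In *Clk-Jrk*, 6 of these 26 were higher and 5 lower, against 9.74% and 36.7% of all genes, with a median difference of 0.04 against -0.23 over all genes. *CG6908* rose most (2.58 ± 0.30, higher in 12 of 12 pairs, adjusted limma *p* = 1.65e-06), followed by *CG2004* (0.48 ± 0.12) and *CG13360* (0.44 ± 0.14). *CG11892* (-2.34 ± 0.47, adjusted *p* = 5.89e-04) and *CG11878* (-2.02 ± 0.44, adjusted *p* = 0.00129) fell most, and both flank the *CG10513* and *CG10514* pair, on the plus strand. *CG9259*, which lies outside the window, fell by 1.94 on the log2 scale (SE 0.46, adjusted *p* = 0.00232). Without replicate 1 and without replicate 2, 3 and 4 were higher and 2 and 3 lower, and with the tubule covariate 1 was higher and 0 lower.

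Of the 16 ecdysone handling and response genes, 9 passed the filter. At 18°C, 2 were higher and 5 lower than at 25°C, against 23.1% and 30.5% of all genes. The count of lower genes was 3 without replicate 1, without replicate 2 and with the tubule covariate, and that of higher genes was 4 with the median of ratios. *Oatp74D*, the ecdysone importer, was higher by 0.73 ± 0.07 and *Cyp18a1*, which inactivates ecdysteroids, by 0.35 ± 0.09, whereas *MsrA*, an ecdysone-induced methionine sulfoxide reductase, was lower by -1.23 ± 0.22, the nuclear receptor gene *ftz-f1* by -0.56 ± 0.16 and the transporter gene *E23* by -0.51 ± 0.18 (adjusted limma *p* between 5.24e-11 and 0.0145). On 5% SY, *MsrA* was higher (0.43 ± 0.15) and 4 were lower, against 6.15% and 25.2% of all genes, led by *ftz-f1* (-0.74 ± 0.18), *E23* (-0.63 ± 0.19) and *usp* (-0.37 ± 0.09). In *Clk-Jrk*, 0 were higher and 7 lower, against 9.74% and 36.7% of all genes, led by *ftz-f1* (-1.28 ± 0.24, adjusted *p* = 3.19e-04), the receptor gene *EcR* (-1.20 ± 0.14, adjusted *p* = 1.67e-06) and *Eip75B* (-1.15 ± 0.16, adjusted *p* = 2.06e-05). With the tubule covariate 2 of these 9 were lower in the mutant, and without replicate 2 the count was 4. Between the diets, 0 of 9 passed without replicate 2, and *MsrA* did not pass without the 20 most abundant features.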

How the data were processed

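RNA of dissected abdominal fat bodies was sequenced from polyadenylated libraries. Per the labels and the study's methods, the authors trimmed single-end reads, aligned them with STAR (2.7.10a) and quantified them with RSEM (1.3.1) on BDGP6 (Ensembl release 107), without regard to strand; RSEM divides reads that match several genes. The deposited values are TPM, made by the authors, for 23932 features. Neither depth nor counting error can be read from TPM; each library held 11497 to 14702 features above 0 TPM. The 20 most abundant features took 22.8% to 50.8% of all TPM per library. Fold changes on log2(TPM + 1) understate those of low genes. The labels give time points from ZT0 in their protocol and from ZT2 in the sample titles, and the titles were used.

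Groups follow genotype, diet and temperature in the sample titles. Genes with a median above 5 TPM at 18°C or 25°C on 15% SY were kept. Rhythms were fitted by harmonic regression of TPM with a 24 h period in each group, with an F-test threshold of 0.1. Mean levels and differences in rhythm were tested with limma (3.58.1, R 4.3.3) on log2(TPM + 1), with cosine, sine and their interaction with the group, and Benjamini-Hochberg adjustment over all 7157 genes at 0.05. Correlations used 100000 permutations, two-sided (Python 3.11.15, NumPy 2.4.6, SciPy 1.17.1). Libraries were permuted freely within a group, across time points and replicates. A time of day or replicate shift shared by both quantities therefore counts as association in these *p*-values. The scripts were tested on simulated data. Positions are from the Ensembl release 115 annotation of the same assembly.

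The 7 genes, the gene and marker lists and the tests were chosen with earlier results of these data known. The text names the 7 genes, genes of the window, up to 3 genes per list, comparison and direction among those past the threshold by size of the difference, the 3 genes most like *CG10560*, and *Clk*, *tim* and *per*. Alternatives were other scales, scalings, filters and thresholds, the 6 time points of the mutant, a light-dark step, each phase of the day alone, the replicate number as a block, and each replicate left out; the tubule marker covariate was added after the data were seen. A search of promoter motifs was planned and not run, since no sequence was used here.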

Additional observations from a re-analysis of the deposited data

How the results depend on the processing

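Counts of genes of the cluster with a rhythm, 1 of 5 at 18°C, 2 of 5 at 25°C, 0 of 6 on 5% SY and 1 of 6 in *Clk-Jrk*, changed by 1 or 2 genes under these settings. On log2(TPM + 1) they were 2 at 18°C and 3 in *Clk-Jrk*. With median-of-ratios scaling they were 2 at 18°C, 1 at 25°C and 0 in *Clk-Jrk*. At the 6 time points of the mutant they were 2 at 18°C and 1 at 25°C, while counts over all genes fell to 1193 at 18°C, 476 at 25°C and 365 on 5% SY. With a light-dark step 0 passed in *Clk-Jrk*, and 798 genes in all passed at 25°C and 413 on 5% SY. At *p* below 0.05, 1 passed at 25°C and 0 in *Clk-Jrk*, with 648, 449 and 666 genes in all at 25°C, on 5% SY and in *Clk-Jrk*. With the tubule marker sum as a covariate, 1 passed at 25°C, 2 on 5% SY and 0 in *Clk-Jrk*, with 810 genes in all at 25°C and 1900 on 5% SY. Leaving out either replicate gave 0 to 2 at 18°C, 1 at 25°C and 0 in *Clk-Jrk*, with 766 to 826 genes in all at 25°C and 479 to 1414 in *Clk-Jrk*.

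In the limma tests, median-of-ratios scaling gave 2 genes of the cluster between the diets, and left 25 genes in all whose rhythm differed between the temperatures and 1 between *Clk-Jrk* and wild type. The latter count was also 1 with log2(TPM + 0.1) and with no filter. The tubule covariate gave 1 gene of the cluster between the temperatures, 3 between the diets and 1 of 462 genes in *Clk-Jrk*, and 40 genes with a difference in rhythm between the temperatures. In the light phase alone 2 genes of the cluster and 1564 genes in all passed in *Clk-Jrk*, and in the dark phase 2 and 1179. Between the diets 0 genes passed with limma in the light phase (2568 unadjusted) and 0 in the dark phase (635 unadjusted), and between the temperatures 1655 passed in the dark phase. Leaving out either replicate gave 2307 to 3313 genes for the mean level and 0 to 5 for the rhythm between the temperatures (0 was without replicate 2, with 1758 unadjusted). Between the diets it gave 2 to 3957 genes and 0 to 3 of the cluster. In *Clk-Jrk* it gave 1576 to 1972 genes and 2 to 4 of the cluster, and 0 genes with a difference in rhythm (225 and 866 unadjusted). Signs turned with a call at the alternative, without replicate 1, for *CG10553* (-0.96, against 1.3 without replicate 2) and *CG10560* (-0.95, against 1.11) between the diets and for *CG10562* (0.52, against -0.52) in *Clk-Jrk*. Among differences with no call on either side, signs turned between the temperatures for *CG10550* (-0.07) and *CG10553* (-0.30) without replicate 1 and *CG10560* (0.06) without replicate 2, and between the diets for *CG10513* (0.20) and *CG10514* (0.90) without replicate 2; other settings turned further signs without a call. The causes were not tested.

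In the tests, the replicate numbers were not taken to pair the libraries. The labels give no shared batch, and the correlation was not above 0.1 at every time point. Deviations of same-numbered libraries from the mean of their time point correlated by 0.28 on average between the temperatures (-0.16 to 0.59), 0.25 between the diets (-0.06 to 0.58) and -0.17 between *Clk-Jrk* and wild type (-0.49 to 0.37). Some features followed the number in more than 1 group, as with the fat body marker sum (medians of 18471 and 89551 TPM at 18°C and of 54409 and 131983 TPM at 25°C in replicates 1 and 2). With the replicate block, 2 genes of the cluster had a rhythm at 18°C and 0 in *Clk-Jrk*, 2 passed between the diets, *CG10550* and *CG10562*, and 413 genes in all differed in rhythm between the temperatures; the 4 calls in *Clk-Jrk* kept their side of the threshold.

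The small number of libraries, 12 in the mutant, limits the precision.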
